A study of Mus musculus with 12 samples.

Results

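The genes described here encode the CXC and CX3C chemokines of mouse pancreatic stellate cells (PSCs), the fibroblast-like cells of the pancreas, and were taken from a count table by their symbols. They are *Cxcl1*, *Cxcl2*, *Cxcl5*, *Cxcl9*, *Cxcl10*, *Cxcl11*, *Cxcl12*, *Cxcl14*, *Cxcl16* and *Cx3cl1*, 10 of the 39179 genes in the table. RNA was sequenced from PSCs of the C57BL/6 strain after 72 h in a minimal medium with little serum, at an equal total number of cells per culture. They were grown alone (mono-PSCs), with mouse pancreatic cancer cells (PCCs; 2W-PSCs), or with PCCs and a mouse macrophage (MØ) cell line (3W-PSCs). The PSCs of all cultures carried mCherry, the added PCCs EGFP and the added MØs TagBFP. The PSCs were recovered by sorting for mCherry and against EGFP and TagBFP. Each culture gave 4 libraries, 12 in all, described as biological replicates. By the study's methods the PSCs are an SV40-immortalised clone, so the spread between libraries is that between cultures of a single clone and not between animals.

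Chemokines are small secreted proteins that guide white blood cells along gradients by binding receptors with a G protein on the inner side. CXC chemokines with the amino acids ELR ahead of the first cysteines, among them CXCL1, CXCL2 and CXCL5, bind CXCR2 and attract neutrophils. CXCL9, CXCL10 and CXCL11 lack these letters, are known for induction by interferon, and bind CXCR3 on T cells and natural killer cells. CXCL12, a constitutive product of many fibroblasts, binds CXCR4 and ACKR3, and in pancreatic tumours it is known as a product of cancer-associated fibroblasts. CXCL16 and CX3CL1 are made as membrane proteins and can be shed by the proteases ADAM10 and ADAM17. Their receptors are CXCR6 and CX3CR1.

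Levels are counts per 1000000 counts of a library (CPM) after TMM scaling, a correction of library size. Means are followed by the SD over the 4 libraries of a culture. The libraries were primed at the poly(A) tail and give about 1 fragment per transcript, so levels of different genes were set side by side without a correction for length. Cultures were compared in pairs of 4 against 4 libraries by edgeR's quasi-likelihood test on all genes, and a gene was called at a Benjamini-Hochberg adjusted p under 0.05. Total counts ranged from 4561817 to 8093368 per library, where 3 counts stand for 0.347 to 0.736 CPM. Replicate 2 of 2W-PSCs had the lowest total, and without it the calls over all genes between 3W-PSCs and 2W-PSCs went from 1230 to 2107. The log2 fold change between these cultures then went from 3.27 to 2.94 for *Cxcl1*, 3.28 to 2.99 for *Cxcl2* and 3.42 to 3.12 for *Cxcl9*. Those of *Cxcl10* and *Cx3cl1* without this library are given below, and no chemokine gene gained or lost its call. Of 12 fibroblast markers, 11 had at least 10 counts in every library, while *Lum* had at most 7 counts in any library. The sum of 4 endothelial markers was 3.25 to 5.55 CPM in 3W-PSCs and at most 3.02 CPM elsewhere. In 3W-PSCs it was nearly all *Kdr* (mean 4.14 CPM), while *Cdh5* had no count and *Pecam1* and *Tek* had at most 1 and 6 counts. Markers of the other cultured cells are given beside the genes they moved with.

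Sequences upstream of the RefSeq transcription start were available (GRCm38.p6) for 7 of the 10 genes, and those of *Cxcl5*, *Cxcl11* and *Cxcl16* were not matched. The 250 bases before the start were searched on both strands for the GAS motif TTCNNNGAA, bound by STAT factors, for the ISRE core, 2 copies of GAAA with 2 bases between them, bound by interferon-activated factors, and for the NF-κB consensus. Over 32851 promoters of this length, 7.02% held the GAS motif, 2.98% the ISRE core and 7.25% the NF-κB consensus. Shown are the genes with the largest levels in 3W-PSCs for each behaviour, that is *Cxcl10* and *Cxcl1*, which rose, with *Cxcl2*, the neighbour of *Cxcl1*, and *Cxcl12*, which fell. Capitals mark matches to any of the 3 motifs.
*Cxcl10* (chr5:92348890-92349139, minus strand): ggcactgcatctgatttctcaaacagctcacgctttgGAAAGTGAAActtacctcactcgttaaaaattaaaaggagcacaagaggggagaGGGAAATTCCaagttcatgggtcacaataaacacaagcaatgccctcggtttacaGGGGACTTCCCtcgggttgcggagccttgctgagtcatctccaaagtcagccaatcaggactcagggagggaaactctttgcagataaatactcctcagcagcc
*Cxcl1* (chr5:90890995-90891244, plus strand): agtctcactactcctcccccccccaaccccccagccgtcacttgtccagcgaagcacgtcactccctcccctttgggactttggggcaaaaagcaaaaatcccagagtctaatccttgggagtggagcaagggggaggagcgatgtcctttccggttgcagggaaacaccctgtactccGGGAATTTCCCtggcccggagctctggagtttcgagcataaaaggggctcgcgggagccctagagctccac
*Cxcl2* (chr5:90903649-90903898, plus strand): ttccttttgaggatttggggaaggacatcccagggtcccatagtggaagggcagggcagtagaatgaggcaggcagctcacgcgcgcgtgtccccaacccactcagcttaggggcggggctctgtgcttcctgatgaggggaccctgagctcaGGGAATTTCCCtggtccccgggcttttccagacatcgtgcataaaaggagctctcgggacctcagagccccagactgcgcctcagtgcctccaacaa
*Cxcl12* (chr6:117168285-117168534, plus strand): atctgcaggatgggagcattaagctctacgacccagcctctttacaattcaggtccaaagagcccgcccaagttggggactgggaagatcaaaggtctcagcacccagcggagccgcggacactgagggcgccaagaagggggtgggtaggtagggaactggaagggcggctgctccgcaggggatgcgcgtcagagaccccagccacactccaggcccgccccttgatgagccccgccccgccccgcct
The *Cxcl10* window holds 1 ISRE core, from 213 to 204 bases before the start, and 3 matches to the NF-κB consensus, 2 of which overlap. *Cxcl1* and *Cxcl2* each hold 2 overlapping NF-κB matches that together read GGGAATTTCCC, from 71 to 61 bases before the start in *Cxcl1* and from 97 to 87 bases in *Cxcl2*. No match to the 3 motifs was found in the windows of *Cxcl12*, *Cx3cl1* and *Cxcl9*. The window of *Cxcl14* holds 1 GAS motif and 1 ISRE core, although this gene had no count in any library. These matches describe letters and do not show that a factor binds there.

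Between 3W-PSCs and 2W-PSCs, 9 of the 10 genes had enough counts for a test. 6 were called higher in 3W-PSCs (*Cxcl1*, *Cxcl2*, *Cxcl9*, *Cxcl10*, *Cxcl11* and *Cxcl16*), 1 was called lower (*Cxcl12*), and *Cxcl5* and *Cx3cl1* were not called. Over all 11513 genes tested in this comparison, 10.7% were called, 5.73% higher and 4.95% lower. Against mono-PSCs, 8 genes were called higher in 3W-PSCs and *Cxcl12* was called lower, where 26.4% of all 11551 genes were called, 13.4% higher and 13.0% lower. Between 2W-PSCs and mono-PSCs none of the 6 genes tested was called by edgeR, 1 of them (*Cxcl5*) had an unadjusted p under 0.05, and DESeq2 called none. There 0.991% of all 11199 genes were called, 0.839% higher and 0.152% lower. *Cxcl2*, *Cxcl9* and *Cxcl11* passed the filter on low counts only through the 3W-PSC libraries and so had to differ. Of the 6 genes that passed without these libraries, 3 were called higher and 1 lower in 3W-PSCs than in 2W-PSCs, with a median log2 fold change of 1.90 against 0.0025 over all genes tested. Against mono-PSCs 5 of these 6 were called higher and 1 lower in 3W-PSCs. Among the 5 was *Cxcl5*, which passed the filter against mono-PSCs only through the co-culture libraries, where it was high. The members and the grouping were chosen with earlier results known, and the comparisons share libraries.

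**Figure D1:**
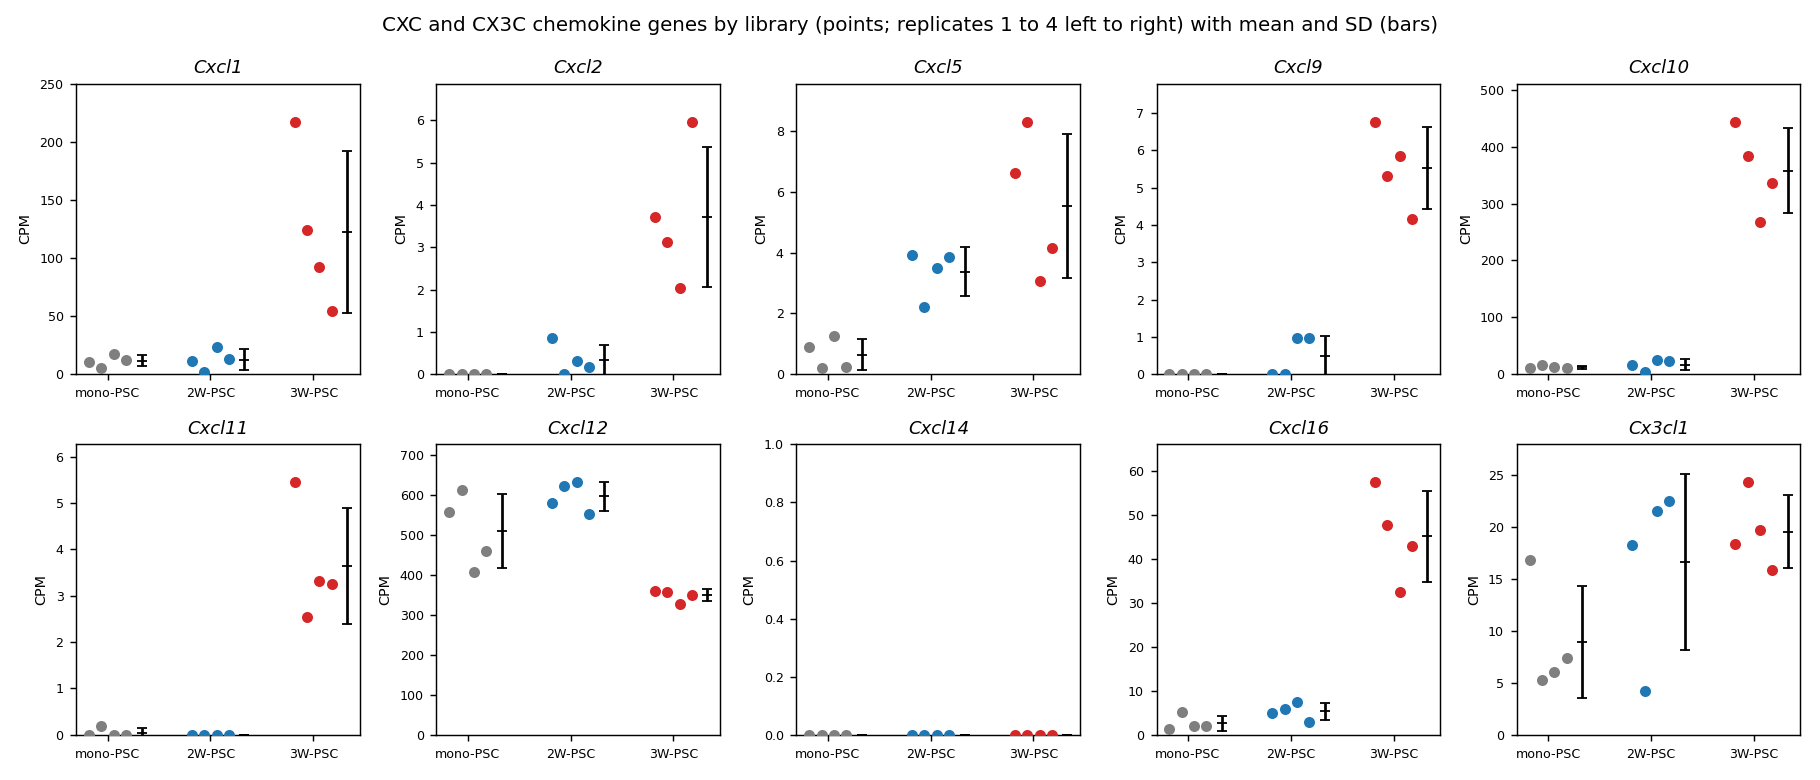
Level of each chemokine gene in CPM (vertical axes, linear, each with its own range) in the 4 libraries of mono-PSCs, 2W-PSCs and 3W-PSCs. Points are libraries and bars are the mean and SD; the 3W-PSC points of *Cxcl10* lie between 269 and 445 CPM, above all others, while those of *Cxcl12* lie between 328 and 360.5 CPM, below all others.

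The interferon-inducible ligands of CXCR3 lie side by side on chromosome 5 of GRCm38, *Cxcl9* from 92321347 to 92328079, *Cxcl10* from 92346638 to 92348889 and *Cxcl11* from 92359544 to 92365485, all on the minus strand. *Cxcl10* (ENSMUSG00000034855) had 10.01, 15.3, 13.1 and 9.92 CPM in mono-PSC replicates 1 to 4. In 2W-PSCs it had 15.3, 2.94, 24.4 and 23.3 CPM, and in 3W-PSCs 445, 383, 269 and 337 CPM. The lowest 3W-PSC library was thus far above the highest library of either other culture. The log2 fold change was 4.89 against mono-PSCs (standard error 0.216, adjusted p = 9.10e-11, edgeR) and 4.43 against 2W-PSCs (95% interval 3.38 to 5.47, adjusted p = 0.000296, edgeR). Without replicate 2 of 2W-PSCs, the lowest library of all, the latter was 4.10. On the opposite strand *Art3* overlaps 133 exonic bases of *Cxcl10* and had at most 11 counts in any library. The strand setting of the counting is not given in the sources used here, so reads of a gene and its antisense partner cannot be told apart.
*Cxcl9* (ENSMUSG00000029417) was far scarcer. It had no count in any mono-PSC library, 0, 0, 6 and 6 counts in 2W-PSCs, and 51, 46, 46 and 32 counts in 3W-PSCs. In CPM the 3W-PSC libraries had 6.77, 5.32, 5.85 and 4.16. Their mean of 5.53 CPM was at least 11-fold above the mean level of 3 counts in mono-PSCs. Against 2W-PSCs the log2 fold change was 3.42 (95% interval 1.82 to 5.02, adjusted p = 0.0136, edgeR), and the adjusted p was 0.0509 when replicate 1 of 3W-PSCs was left out. These p-values count for little, since *Cxcl9* passed the filter only through the 3W-PSC libraries, where it was high.
*Cxcl11* (ENSMUSG00000060183) is annotated as a polymorphic pseudogene, a gene whose coding sequence is broken in the reference strain C57BL/6J and intact in others, so its RNA is not evidence of a CXCL11 protein. Only 1 count was found over the 8 libraries of mono-PSCs and 2W-PSCs, against 41, 22, 26 and 25 counts in 3W-PSCs. The level in 3W-PSCs, 3.64 ± 1.25 CPM (SD, n = 4), was at least 7.24-fold and 6.87-fold above 3 counts in mono-PSCs and 2W-PSCs. The pseudogene *Gm2673* covers 1582 of its exonic bases on the opposite strand and is listed at 0 counts in every library. In 3W-PSCs *Cxcl10* was thus far more abundant than *Cxcl9* and *Cxcl11*, whose ranges lay between 2.54 and 6.77 CPM and overlapped.
Markers of macrophages moved with these genes. Their sum over 11 genes was 18.9, 12.95, 15.5 and 52.6 CPM in 3W-PSC replicates 1 to 4 and at most 11.8 CPM in any other library. *Cxcl9* was lowest, and *Cxcl10* below its mean, in replicate 4, the library with the highest sum. Without this library *Cxcl10* was still called against both other cultures. So were *Cxcl9* and *Cxcl11*, whose calls count for little, since both passed the filter only through the 3W-PSC libraries. The remaining 3W-PSC libraries also had sums above 11.8 CPM, so these calls do not bear on the source of the reads. The part of macrophage RNA in these levels was not tested. In bulk RNA, fewer cells of a type and less RNA per cell cannot be told apart.

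*Cxcl1*, *Cxcl2* and *Cxcl5*, whose products attract neutrophils, lie on chromosome 5, plus strand, at 90891241 to 90893115, 90903871 to 90905938 and 90759360 to 90761624. *Cxcl1* (ENSMUSG00000029380) had 10.7, 5.68, 17.2 and 11.9 CPM in mono-PSCs. With PCCs the values were 11.3, 1.96, 23.4 and 13.3 CPM, and with PCCs and MØs 217, 124, 92.5 and 54.3 CPM. All 3W-PSC libraries lay above all others, but they differed among themselves by 4.00-fold, against 1.66-fold for *Cxcl10* and 1.10-fold for *Cxcl12* in the same libraries. The log2 fold change was 3.27 against 2W-PSCs (95% interval 2.01 to 4.52, adjusted p = 0.00524, edgeR) and 3.41 against mono-PSCs (adjusted p = 2.43e-06, edgeR). Between 2W-PSCs and mono-PSCs it was 0.16, with a 95% interval from -1.0 to 1.32, and its sign turned at -0.34 without replicate 3 of 2W-PSCs and at -0.074 without replicate 2 of mono-PSCs.
*Cxcl2* (ENSMUSG00000058427), a close relative of *Cxcl1*, was scarce throughout. It had no count in mono-PSCs, 6, 0, 2 and 1 counts in 2W-PSCs, and 28, 27, 16 and 46 counts in 3W-PSCs. In 3W-PSCs its level was 3.71 ± 1.66 CPM (SD, n = 4), at least 7.39-fold above 3 counts in mono-PSCs, and the log2 fold change against 2W-PSCs was 3.28 (95% interval 1.76 to 4.81, adjusted p = 0.0131, edgeR). It was 4.25 without replicate 1 of 2W-PSCs, which held most counts of that culture. Adjusted p-values for this difference count for little, since *Cxcl2* passed the filter only through the 3W-PSC libraries. *Cxcl2* was highest in replicate 4 of 3W-PSCs, the library where *Cxcl1* was lowest. Without that library the adjusted p against 2W-PSCs was 0.0511. The same library had the highest sum of macrophage markers, 52.6 CPM, where mono-PSCs had 2.46 to 8.42 CPM. In replicate 4 of 3W-PSCs 9 of the 11 macrophage markers had at least 10 counts, against 4 or 5 in the other 3W-PSC libraries. *Ptprc*, *Tyrobp*, *Laptm5* and *Spi1*, 4 genes of the macrophage list, had no count in any mono-PSC or 2W-PSC library. In 3W-PSC libraries they had 0 to 20, 0 to 22, 1 to 75 and 0 to 8 counts. Others of the list were found outside 3W-PSCs. *Lyz2* and *Coro1a* had up to 30 and 22 counts in a mono-PSC library, and *Csf1r* up to 28 in a 2W-PSC library. The part of these transcripts in the *Cxcl2* counts was not tested. At its 3′ end *Cxcl2* shares 4.81% of its 75-base windows with *Cxcl3*, which had at most 2 counts in any library.
*Cxcl5* (ENSMUSG00000029371) had 0.878, 0.196, 1.24 and 0.242 CPM in mono-PSCs. In 2W-PSCs it had 3.94, 2.21, 3.50 and 3.85 CPM, and in 3W-PSCs 6.64, 8.33, 3.05 and 4.16 CPM. Every library of either co-culture lay above every mono-PSC library, while the co-cultures overlapped. The gene passed the filter against mono-PSCs only through the co-culture libraries, so its p-values there count for little. Against mono-PSCs the log2 fold change was 3.12 in 3W-PSCs (adjusted p = 0.000669, edgeR) and 2.41 in 2W-PSCs, where the adjusted p of 0.140 was not past the threshold, became 0.0377 with all 12 libraries in one fit, and ranged from 0.0377 to 0.431 over 15 alternative settings. Between 3W-PSCs and 2W-PSCs it was 0.70 (95% interval -0.18 to 1.59, adjusted p = 0.298, edgeR). Epithelial markers followed the co-cultures too. Their sum over 10 genes lay at or below 2.46 CPM in every mono-PSC library, between 74.5 and 146 CPM with PCCs, and between 50.3 and 88.6 CPM with PCCs and MØs. Of these markers 5 (*Krt7*, *Krt8*, *Krt18*, *Krt19* and *Cdh1*) had at least 10 counts in every co-culture library. *Cldn4* had no count in any library and *Epcam* none in 2W-PSCs. The share of *Cxcl5* reads that came with these transcripts was not tested.

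**Figure D2:**
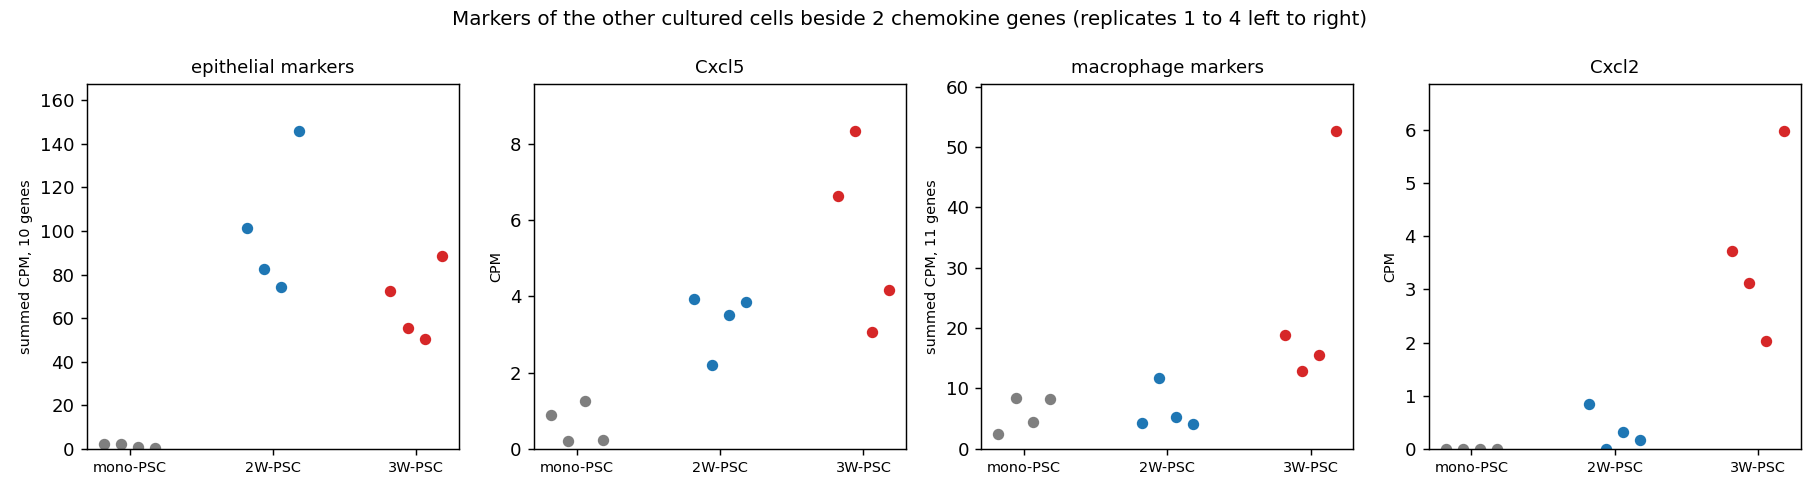
Summed CPM of epithelial markers (10 genes) and macrophage markers (11 genes) beside the CPM of *Cxcl5* and *Cxcl2* in each library, replicates 1 to 4 from left to right in each culture, on linear axes from 0. Epithelial markers and *Cxcl5* are low in all mono-PSC libraries, and replicate 4 of 3W-PSCs is highest for both macrophage markers (52.6 CPM) and *Cxcl2* (5.98 CPM).

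*Cxcl12* (ENSMUSG00000061353; chromosome 6, 117168535 to 117181367, plus strand) was the only member called lower in 3W-PSCs. It had 557, 612, 407 and 459 CPM in mono-PSCs. In 2W-PSCs it had 580.0, 621, 631 and 552 CPM, and in 3W-PSCs 360.5, 358, 328 and 349 CPM. No 3W-PSC library reached the level of any other library, while mono-PSCs and 2W-PSCs overlapped. The log2 fold change was -0.77 against 2W-PSCs (95% interval -1.08 to -0.46, adjusted p = 0.00689, edgeR) and -0.55 against mono-PSCs (adjusted p = 0.0145, edgeR), the latter with an adjusted p of 0.0510 without replicate 2 of mono-PSCs. Between 2W-PSCs and mono-PSCs it was 0.24 (95% interval -0.18 to 0.67, adjusted p = 0.985, edgeR). Of 11 fibroblast markers tested, 6 were called lower and 1 higher in 3W-PSCs than with PCCs alone. Over all genes tested there, 4.95% were called lower and 5.73% higher. Against mono-PSCs 3 markers were called lower and 2 higher (*Pdgfra* and *Fn1*), where 13.0% and 13.4% of all genes tested were. The sum of the 12 fibroblast markers lay between 7917 and 9970 CPM in 3W-PSCs. It lay between 12069 and 15036 CPM with PCCs alone and between 9576 and 13307 CPM in mono-PSCs. Their part in the *Cxcl12* result was not tested. Unlike *Cxcl1* and *Cxcl10*, *Cxcl12* was not low in replicate 2 of 2W-PSCs. *Cxcl14* (ENSMUSG00000021508), another ligand made constitutively in many epithelia and fibroblasts, lies on chromosome 13 from 56288643 to 56296551. It had 0 counts in all 12 libraries, which allows a level of up to 0.736 CPM in the shallowest of them.

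*Cxcl16* and *Cx3cl1* encode the membrane-anchored ligands. *Cxcl16* (ENSMUSG00000018920; chromosome 11, 70453983 to 70459984, minus strand) had 1.40, 5.09, 2.13 and 1.94 CPM in mono-PSCs. With PCCs the values were 5.07, 5.89, 7.48 and 2.89 CPM, and with PCCs and MØs 57.5, 47.9, 32.6 and 43.0 CPM. The 3W-PSC libraries were well apart from the rest. The log2 fold change was 4.12 against mono-PSCs (standard error 0.322, adjusted p = 5.52e-08, edgeR) and 3.09 against 2W-PSCs (95% interval 2.43 to 3.75, adjusted p = 0.000156, edgeR). Between 2W-PSCs and mono-PSCs it was 1.04 (95% interval -0.084 to 2.16, adjusted p = 0.744, edgeR), with overlapping libraries. *Cxcl16* was highest in replicate 1 of 3W-PSCs and the macrophage markers in replicate 4. Without replicate 4 *Cxcl16* was still called against both other cultures. The remaining 3W-PSC libraries also had more macrophage marker CPM (12.95 to 18.9) than any library of those cultures (at most 11.8), so this call does not bear on the source of the reads. The part of macrophage RNA in the *Cxcl16* level was not tested. Its exons share 552 bases with *Zmynd15* on the opposite strand, which had 7 to 26 counts in 3W-PSCs and at most 4 elsewhere.
*Cx3cl1* (ENSMUSG00000031778; chromosome 8, 94772009 to 94782427, plus strand) had 16.9, 5.29, 6.04 and 7.38 CPM in mono-PSCs. In 2W-PSCs it had 18.3, 4.17, 21.5 and 22.5 CPM, and in 3W-PSCs 18.3, 24.3, 19.7 and 15.8 CPM. Replicate 1 of mono-PSCs reached the co-cultures and replicate 2 of 2W-PSCs lay below all mono-PSC libraries. Against mono-PSCs it was called higher in 3W-PSCs, at a log2 fold change of 1.13 (95% interval 0.46 to 1.80, adjusted p = 0.0133, edgeR), but the libraries overlapped (two-sided exact permutation test, p = 0.0571), and the adjusted p was 0.0513 without replicate 3 of mono-PSCs and 0.0758 with all 12 libraries in one fit. Between the co-cultures the log2 fold change was 0.23 (95% interval -0.63 to 1.09, adjusted p = 0.761, edgeR) and turned to -0.082 without replicate 2 of 2W-PSCs. Without that library the 2W-PSC level was 20.8 ± 2.18 CPM (n = 3), while that of 3W-PSCs was 19.5 ± 3.54 CPM (n = 4). Between 2W-PSCs and mono-PSCs the log2 fold change was 0.92 (95% interval -0.14 to 1.99, adjusted p = 0.814, edgeR).

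**Figure D3:**
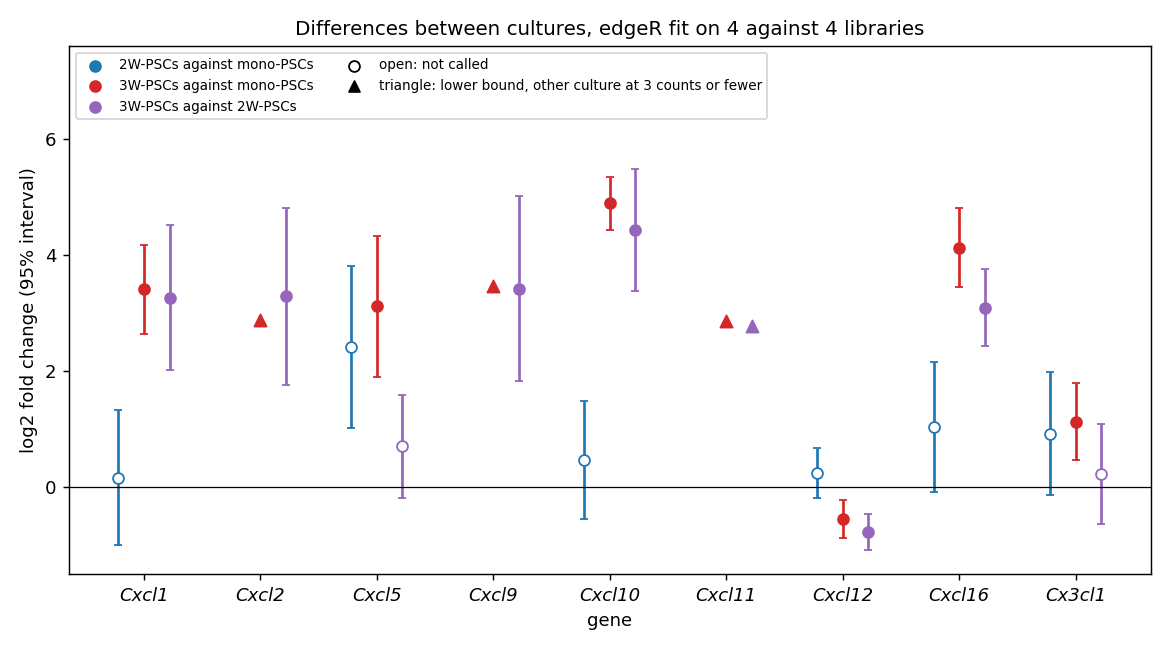
Log2 fold change (vertical axis) of 9 chemokine genes in the 3 comparisons, fitted in edgeR on 4 against 4 libraries, with 95% intervals; *Cxcl14* had no counts. Filled circles were called, open circles were not, and triangles are lower bounds where every library of the second culture had 3 counts or fewer; only the *Cxcl12* values of -0.77 and -0.55 are called below 0.

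The shares of *Cxcl12* and *Cxcl10* among the chemokine transcripts of 3W-PSCs did not overlap with those of the other cultures. *Cxcl12* took 91.1% to 95.1% of the summed counts of the 10 genes in mono-PSCs and 88.6% to 97.3% in 2W-PSCs, but 32.2% to 43.4% in 3W-PSCs. *Cxcl10* went from 1.68% to 2.94% in mono-PSCs and 0.461% to 3.76% in 2W-PSCs to between 35.5% and 41.2% in 3W-PSCs. The number of *Cxcl12* counts per *Cxcl10* count had a median of 43.1 in mono-PSCs, 31.9 in 2W-PSCs and 0.985 in 3W-PSCs. The summed level of the 10 genes was 544 ± 91.4 CPM in mono-PSCs. It was 651 ± 41.7 CPM with PCCs and 912 ± 162 CPM with PCCs and MØs.
By level, 3W-PSCs had *Cxcl10* and *Cxcl12* first, at 358 ± 74.4 and 349 ± 14.6 CPM, with overlapping libraries. *Cxcl1* (122 ± 69.7 CPM) came next and overlapped at its lowest library with the highest of *Cxcl16* (45.2 ± 10.4 CPM), and *Cx3cl1* (19.5 ± 3.54 CPM) lay below *Cxcl16* without overlap. *Cxcl5*, *Cxcl9*, *Cxcl2* and *Cxcl11* had means between 3.64 and 5.54 CPM, and each overlapped with at least 1 of the others. In mono-PSCs *Cxcl12* (509 ± 92.7 CPM) stood alone, and *Cxcl10* (12.1 ± 2.60 CPM), *Cxcl1* (11.4 ± 4.74 CPM) and *Cx3cl1* (8.89 ± 5.38 CPM) overlapped.

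**Figure D4:**
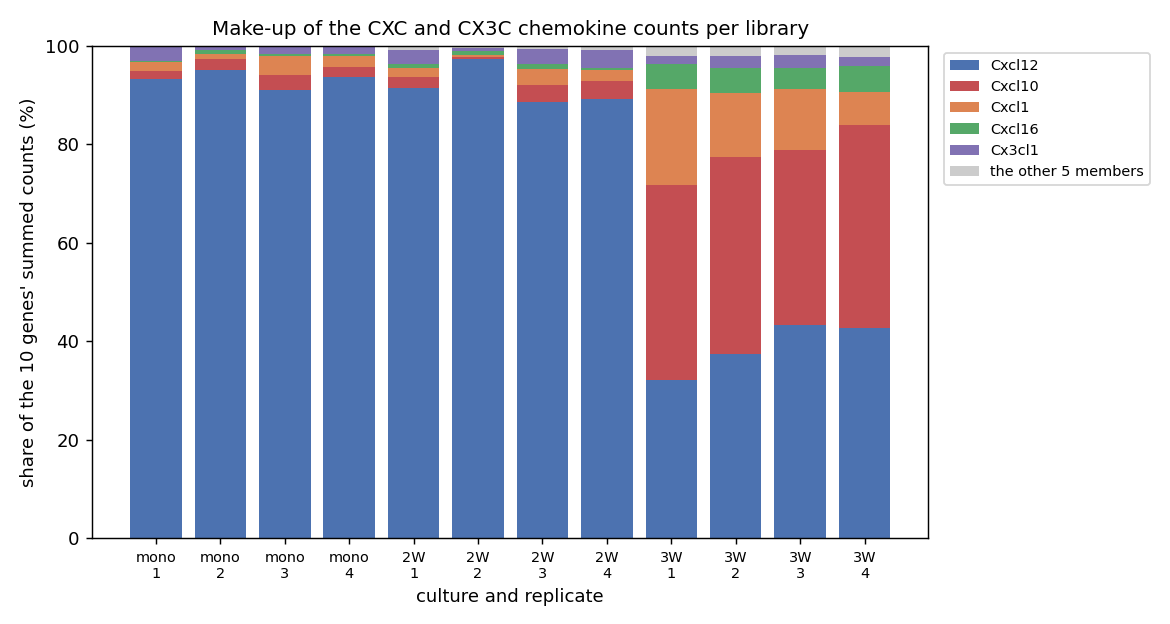
Share of each library's summed counts of the 10 chemokine genes (vertical axis, percent) taken by *Cxcl12*, *Cxcl10*, *Cxcl1*, *Cxcl16*, *Cx3cl1* and the other 5 genes, for 4 libraries per culture. *Cxcl12* takes at least 88.6% in every mono-PSC and 2W-PSC library and at most 43.4% in 3W-PSCs.

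Of 8 receptor genes in the table, only *Ackr3*, which encodes a scavenger receptor for CXCL12 and CXCL11, had enough counts for a test. It had 5.09, 5.68, 9.76 and 8.95 CPM in mono-PSCs. In 2W-PSCs it had 8.02, 1.72, 10.2 and 8.35 CPM, and in 3W-PSCs 17.4, 25.6, 31.1 and 19.4 CPM. All 3W-PSC libraries lay above all others. The log2 fold change was 1.70 against 2W-PSCs (95% interval 0.82 to 2.58, adjusted p = 0.0222, edgeR) and 1.65 against mono-PSCs (adjusted p = 0.000238, edgeR). *Cxcr1*, *Cxcr3*, *Cxcr5* and *Cxcr6* had no count in any library, *Cxcr2* and *Cxcr4* had at most 3 and 4 counts, and *Cx3cr1* had at most 46, in replicate 4 of 3W-PSCs, and 28 in replicate 1 of 2W-PSCs.
Of the 3 proteases that act on these ligands, *Adam17* was called higher in 3W-PSCs, where it had 77.8 ± 4.43 CPM. Its level was 40.2 ± 8.38 CPM with PCCs and 43.0 ± 14.9 CPM in mono-PSCs. Its log2 fold change was 0.95 against 2W-PSCs (adjusted p = 0.00724, edgeR) and 0.84 against mono-PSCs (adjusted p = 0.00585, edgeR). *Adam10*, at 73.4 ± 10.7 CPM in 3W-PSCs against 64.4 ± 5.27 CPM with PCCs alone, was not called (log2 fold change 0.19, 95% interval -0.16 to 0.54). *Dpp4*, which clips CXCL10 and CXCL12, had no count in either co-culture. Of the 6 other CXC ligand genes looked at, none had enough counts for a test. *Pf4*, a chemokine of platelets and macrophages, had 13, 1, 17 and 54 counts in 3W-PSCs, at most 5 in a mono-PSC library and none in 2W-PSCs, and was highest in the library with the most macrophage marker counts.

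Of 37 genes in the table that are not chemokines and start within 100 kb of the start of one of the 10 genes, 13 were tested between 3W-PSCs and 2W-PSCs. None was called higher and 1 was called lower, the proteasome gene *Psmb6* near *Cxcl16* (log2 fold change -0.95, adjusted p = 0.00689, edgeR). Over all genes tested 5.73% were called higher and 4.95% lower. Together with the 1 receptor and 2 proteases tested, 3 genes were called in this comparison. The number was 7 without replicate 2 of 2W-PSCs, 6 without a filter and 6 in DESeq2. Over all genes the calls were 1230, and in these settings 2107, 1201 and 1793. Against mono-PSCs, 12 of the 37 neighbouring genes were tested, and 2 were called higher and 4 lower. There 13.4% of all genes tested were called higher and 13.0% lower. The 2 that rose, *Naaa* and *Sdad1*, start within 100 kb of *Cxcl9*, *Cxcl10* and *Cxcl11*, with log2 fold changes of 0.99 and 0.72 against 4.89 for *Cxcl10*. The *Sdad1* libraries of 3W-PSCs and mono-PSCs overlapped (two-sided exact permutation test, p = 0.0857).
Across the 12 libraries, the genes whose log2 CPM was most like that of *Cxcl10* were *H2-D1*, an antigen-presenting MHC class I gene (Pearson's r = 0.991), the NF-κB inhibitor *Nfkbia* (r = 0.989) and *Psrc1* (r = 0.989). *Cxcl1* was most like *Rtn4*, *Fosl1* and *G3bp2* (r = 0.958 to 0.970), *Cxcl16* like *Ccl8*, *Mmp13* and *Cck* (r = 0.968 to 0.973), *Cxcl12* like *Gm13705*, *Gsta4* and *Inmt* (r = 0.928 to 0.962), and *Cx3cl1* like *Zfp52*, *Pgm3* and *Foxf2* (r = 0.927 to 0.966). These values describe 12 points that share 3 cultures, over 11776 genes, and 3 of the 15 named genes stayed among the 3 closest without replicate 2 of 2W-PSCs.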

How the data were processed

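RNA of PSCs sorted after 72 h was measured in 12 libraries. The authors made QuantSeq 3′ FWD libraries, trimmed the reads, and obtained values per gene by STAR alignment to GRCm38 followed by featureCounts with Ensembl genes. The deposited values are whole-number counts without normalisation. Neither the strand setting of the counting nor molecular identifiers are given in the sources used here, so PCR copies count as reads and limits on depth cover counting error only. Each of the 12 columns was assigned by the sample number that its name and a title share.

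Libraries were scaled by TMM in edgeR 4.0.16 (R 4.3.3), genes were filtered by filterByExpr, and cultures were compared with glmQLFTest, each fit on 8 libraries without a block, with p-values adjusted over all genes tested. Standard errors are the log2 fold change divided by the square root of the F statistic. Folds against a culture with no library above 3 counts are lower bounds, computed against 3 counts. Single values were also compared with two-sided exact permutation tests, whose smallest p for 4 against 4 is 0.0286. Positions and overlaps come from GENCODE M21 (GRCm38). The genes named are the 10 members, a list of other CXC ligands, receptors and proteases, genes starting within 100 kb, and, for members of at least 10 CPM, the 3 genes most correlated. The members and lists were chosen with earlier results of these data known. The test recovered known 4-fold changes in simulated counts. These were set in genes above a minimum level, with the same dispersion for all genes and no library that stood apart, so the scarce members were not covered. Alternatives were DESeq2 1.42.0 and its size factors, other filters, 12 libraries in one fit, a replicate block, a prior count of 2, removal of the most abundant gene, and each library left out.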

Additional observations from a re-analysis of the deposited data

Results flagged for a closer look

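Of 24 sets of 4 libraries with any spread, 1 held a library far from the others. *Cxcl11* had 0.196 CPM, a single count, in replicate 2 of mono-PSCs and 0 in the other 3 libraries. Chance gives such a library in about 1 of 20 sets of continuous values, but any set with a single count and 3 zeros is picked out in this way, so nothing is read from it.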

How the results depend on the processing

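Of 371 values of single members under other settings, 360 kept their direction and their call or lack of one. Another 6 lost their call, 1 gained a call and 4 changed sign. The prior count of 2 alters the fold change and not the p-value, so its values could neither gain nor lose a call. The tally also holds values of *Cxcl2*, *Cxcl9* and *Cxcl11*, which passed the main filter only through the 3W-PSC libraries. The sign changes were that of *Cx3cl1* between the co-cultures, which ranged from -0.082 to 0.39 with a library left out, and those of *Cxcl1* between 2W-PSCs and mono-PSCs, which ranged from -0.34 to 0.49 with a library left out and was -0.060 with the replicate number as a block. With at least 10 counts in every library, 3 members were called between the co-cultures and 4 between 3W-PSCs and mono-PSCs, since fewer were tested. With all 12 libraries in one fit, 1 member (*Cxcl5*) was called higher in 2W-PSCs than in monoculture. With a library left out, 6 to 7, 8 to 9 and 0 members were called in the 3 comparisons. Over all genes, the calls between the co-cultures were 1230, 752 with the replicate block, and 497 to 2107 with a library left out, highest without replicate 2 of 2W-PSCs and at 497 to 750 without any 1 of the 3W-PSC libraries. Against mono-PSCs, calls in 3W-PSCs ranged from 2228 to 4266 with a library left out. The calls between 2W-PSCs and mono-PSCs were 111, 177 without a filter, 57 with at least 10 counts, 262 with 12 libraries, 276 in DESeq2, and 61 to 233 with a library left out, again highest without that library. Without *Cxcl12*, *Cxcl10* took 34.5%, 27.5% and 64.3% of the members' counts in mono-PSCs, 2W-PSCs and 3W-PSCs, and by Spearman correlation, as without replicate 2 of 2W-PSCs, 3 of the 15 closest genes stayed. The causes were not tested. The replicate numbers were not taken to pair the samples, since no source ties a number to a shared day or batch and not every same-numbered pair correlated by over 0.1 in its deviations from the culture means (5 of 12 did, 3 of them between mono-PSCs and 2W-PSCs). As a hint of pairing from the data, 8 of 12 libraries correlated best with their own number. The block ended the call of *Cxcl9* between the co-cultures (adjusted p = 0.0517, edgeR) and no other member's call. *Cxcl2*, *Cxcl9* and *Cxcl11* never exceeded 51 counts, which limits the precision of their fold changes.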
